A study of Mus musculus with 6 samples.

Results

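Müllerian mesenchyme transcription factors were followed as a set of 9 genes, Nr2f1, Nr2f2, Osr1, Osr2, Tcf21, Meis1, Meis2, Msx1 and Twist2. They were found by gene symbol in the platform's probe table, and each had 1 row among the 22206 transcript clusters tested, which carried 19505 different symbols. RNA came from Müllerian ducts dissected at E17.5, late in gestation, with 1 whole-transcript array per mouse embryo and 3 embryos in each group. Control embryos were Lats1f/f,Lats2f/f and carried no Cre. Mutant embryos were Lats1f/f,Lats2f/f,Amhr2cre/+, so floxed alleles of both Hippo kinases were common to both groups and the mutants differed by Cre in 1 copy of the Amhr2 locus. That Cre acts where Amhr2 is active, in the duct mesenchyme, whereas the RNA was that of the whole dissected duct with its epithelium, vessels and blood cells. The labels call the samples biological replicates, and no source used here says whether embryos shared a litter.

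The Müllerian duct is an epithelial tube sheathed in mesenchyme, from which the oviduct, uterus and upper vagina form, and the mesenchyme instructs the regional fate of the epithelium. The genes described here encode DNA-binding proteins that mark or pattern such urogenital mesenchyme. Nr2f1 and Nr2f2 encode the orphan nuclear receptors COUP-TFI and COUP-TFII, Osr1 and Osr2 the odd-skipped zinc finger proteins, and Tcf21 and Twist2 basic helix-loop-helix factors. Meis1 and Meis2 encode homeodomain proteins that bind DNA together with PBX and HOX partners, and Msx1 encodes a homeodomain repressor. In bulk tissue, fewer cells of a type and less RNA per cell cannot be told apart.

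None of the 9 genes passed an adjusted p of 0.05 in limma, where 3.26% of all transcript clusters did (2.59% rose and 0.666% fell). Mean signals were nevertheless all on the lower side in mutant ducts, with log2 differences from -0.69 for Osr2 to -0.06 for Meis2 and a median of -0.31, against a median of -0.01 over all rows tested. A lower mutant mean, with no threshold, was found for 51.5% of all rows, and for 53.9% of the 12443 rows that lay above the background level on every array. Osr2 and Meis1 had an unadjusted limma p under 0.05, which 15.3% of all rows had, 6.81% with a lower mutant signal. For Meis1 and Tcf21, every mutant array lay below every control array, as in 10.2% of all rows (21.1% did not overlap in either direction), and the arrays of the other 7 genes overlapped between groups. Without control 1, 6 of the 9 mutant means were lower, without control 3, mutant 1 or mutant 3 there were 8, and without control 2 or mutant 2 all 9. The median was -0.16 without control 3. The adjusted p of the 9 genes stayed above the threshold in all 13 alternative fits, the lowest being 0.0726 for Osr2 without mutant 2.

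**Figure D1:**
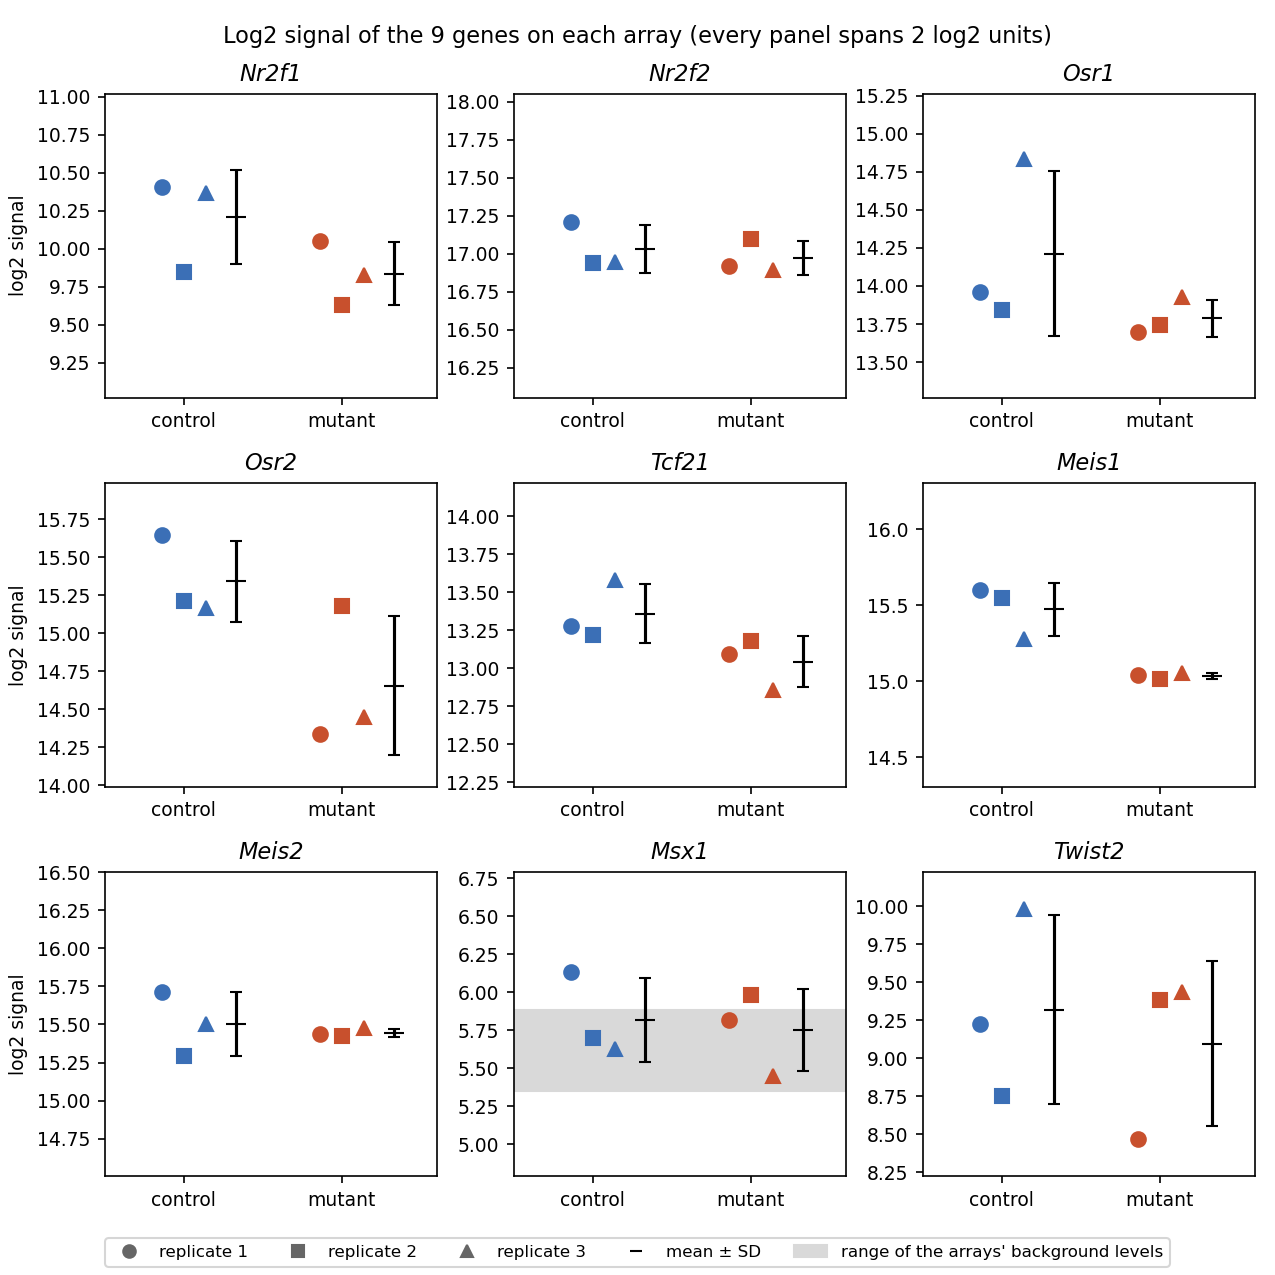
Log2 signal of each gene (vertical axis, 2 log2 units in every panel) on the 3 control and 3 mutant arrays, with a symbol per replicate and a bar for the mean ± SD of each group. The Meis1 and Meis2 signals of the mutant arrays lie close together, control 3 is the highest array for Osr1, Tcf21 and Twist2, and Msx1 lies in or near the grey band of background levels.

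The odd-skipped genes had the 1 difference of the set that was larger than 1.5-fold. Osr2, known for its part in palate and tooth mesenchyme, had log2 signals of 15.64, 15.21 and 15.16 in control 1 to control 3 and 14.34, 15.18 and 14.45 in mutant 1 to mutant 3. Mutant 1 and mutant 3 were below all controls, whereas mutant 2 stood beside control 2 and control 3. The log2 difference was -0.69 ± 0.25 (SE, n = 3 each), or 1.61-fold lower, with a 95% interval from -1.25 to -0.12 and a limma adjusted p of 0.224. Without mutant 2 the difference was -0.95, and without mutant 1 it was -0.53. Osr1, needed for the intermediate mesoderm and early urogenital tissue, was at 13.96, 13.84 and 14.83 in control and 13.70, 13.74 and 13.93 in mutant ducts. Control 3 was set apart from the other 5 arrays, which lay within 0.26 of each other. The log2 difference of -0.42 ± 0.26 (SE, limma adjusted p = 0.501) became -0.11 ± 0.19 (adjusted p = 0.853) without that array. The change of Osr1 minus that of Osr2 was 0.26 over the arrays, with an exact two-sided permutation p of 0.8, and it turned to -0.02 without control 1.

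The TALE homeodomain pair gave the closest mutant replicates. Meis1, a HOX cofactor, was at 15.60, 15.55 and 15.28 in control ducts. In mutant ducts it was at 15.04, 15.01 and 15.05, an SD of 0.02 against 0.17 in control. All mutant arrays were below all control arrays, and the smallest gap between the groups was 0.22. The log2 difference was -0.44 ± 0.16 (SE, n = 3 each), or 1.35-fold lower, with a 95% interval from -0.80 to -0.07 and a limma adjusted p of 0.235. Under the trended prior, in which the expected spread depends on signal, the limma adjusted p of Meis1 was 0.0763. Meis2, its paralog, was at 15.71, 15.29 and 15.50 in control and 15.43, 15.43 and 15.47 in mutant ducts. The mutant arrays lay inside the range of the controls, and the log2 difference was -0.06, with an interval from -0.44 to 0.32. Set against each other within an array, Meis1 minus Meis2 ran from -0.22 to 0.25 in control and from -0.42 to -0.40 in mutant ducts. The groups did not overlap in this within-array difference, which was 0.38 lower in mutant ducts with an exact two-sided permutation p of 0.1, the smallest that 3 against 3 arrays allow. Without control 2 the change of Meis1 minus that of Meis2 was -0.24, against -0.38 over all arrays. The 3 paralog pairs tested could not reach 0.05, before or after any adjustment.

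The windows upstream of the RefSeq start sites of this pair are shown because Meis1 and Meis2 had unlike values on these arrays. Each is the 250 bases before the start in GRCm38.p6, read 5′ to 3′ on the gene's own strand, and capitals mark the motifs searched on both strands. Meis1 lies on the minus strand of chr11:19018970-19019219, and Meis2 on the minus strand of chr2:116064620-116064869.
Meis1: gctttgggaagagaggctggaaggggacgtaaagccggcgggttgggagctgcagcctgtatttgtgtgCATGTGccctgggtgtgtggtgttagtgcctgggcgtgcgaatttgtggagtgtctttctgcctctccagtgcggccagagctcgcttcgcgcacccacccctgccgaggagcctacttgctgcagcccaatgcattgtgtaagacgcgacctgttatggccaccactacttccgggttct
Meis2: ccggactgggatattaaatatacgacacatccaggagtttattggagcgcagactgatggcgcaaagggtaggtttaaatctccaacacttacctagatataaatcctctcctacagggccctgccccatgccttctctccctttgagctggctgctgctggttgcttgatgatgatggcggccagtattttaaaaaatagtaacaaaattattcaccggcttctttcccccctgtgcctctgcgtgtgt
The capitals in Meis1 are an E-box, CANNTG, the letters bound by basic helix-loop-helix factors such as TCF21 and TWIST2, and the Meis2 window held none of the motifs. Windows were at hand for 7 of the 9 genes, 8 windows in all, and not for Osr1 and Osr2. An E-box was in 4 of the 8 windows and in 66.2% of all 32851 windows of the same length. The TEAD core GGAATG, bound by the partners of YAP and TAZ, was in none of the 8 and in 12.6% of all windows, and the nuclear receptor half-site AGGTCA was likewise in none and in 14.02%. These are matches of letters in short windows and not binding sites.

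The COUP-TF genes differed little between genotypes for Nr2f2 and more, within the spread, for Nr2f1. Nr2f2, a regulator of uterine stroma and of vein identity, was at 17.21, 16.94 and 16.95 in control and 16.92, 17.10 and 16.90 in mutant ducts. The groups overlapped in part, with control 1 the highest array and mutant 1 and mutant 3 the lowest, and the log2 difference was -0.06 ± 0.17 (SE, limma adjusted p = 0.909). Its 95% interval ran from -0.43 to 0.31, that is from 0.741 to 1.24 times the control signal. Nr2f1 was at 10.41, 9.85 and 10.37 in control and 10.05, 9.63 and 9.83 in mutant ducts, where only control 2 fell into the mutant range. Its log2 difference was -0.37 ± 0.21 (SE, limma adjusted p = 0.448), with an interval from -0.83 to 0.09. The change of Nr2f1 minus that of Nr2f2 was -0.31, with an exact two-sided permutation p of 0.3, and it was -0.15 without mutant 2 and -0.19 without control 3. Nr2f2 is also a gene of venous endothelium, and the 8 endothelial markers had mean deviations from -0.03 to 0.05 on the control and from -0.20 to 0.08 on mutant arrays. Of these markers the VEGF receptor gene Kdr rose by 1.10 (limma adjusted p = 0.00624), and 6 of the 8 had a lower mutant mean that did not pass. Their part in the Nr2f2 signal was not tested.

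Of the helix-loop-helix factors, Tcf21, which acts in mesenchyme of kidney, lung and gonad, was at 13.28, 13.22 and 13.58 in control and 13.09, 13.18 and 12.86 in mutant ducts. The groups did not overlap, but control 2 and mutant 2 were only 0.04 apart. Its log2 difference was -0.31 ± 0.18 (SE, limma adjusted p = 0.459), and it was -0.20 without control 3. Twist2, a repressor of differentiation in dermal and other mesenchyme, was at 9.23, 8.75 and 9.98 in control and 8.47, 9.38 and 9.44 in mutant ducts. The arrays of the groups were interleaved, and the control SD of 0.62 was larger than that of 96.6% of all rows. The log2 difference of Twist2 was -0.22 ± 0.35 (SE, limma adjusted p = 0.826), with an interval from -1.003 to 0.556, and it turned to 0.11 without control 3 and to 0.09 without mutant 1. The Twist2 window, on the plus strand of chr1:91801211-91801460 in GRCm38.p6, is shown because it was the 1 member window with the core letters TGACAG that MEIS proteins bind, which 15.9% of all windows held.
Twist2: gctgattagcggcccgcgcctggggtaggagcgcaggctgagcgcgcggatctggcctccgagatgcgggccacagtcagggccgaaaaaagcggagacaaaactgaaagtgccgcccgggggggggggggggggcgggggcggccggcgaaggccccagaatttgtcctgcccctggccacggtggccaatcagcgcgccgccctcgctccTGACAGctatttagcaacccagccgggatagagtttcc
The capitals mark this core, which lay from 38 to 33 bases before the start and overlapped none of the other motifs.

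Msx1, a homeodomain factor of limb, tooth and uterine tissue, gave little signal. It was at 6.13, 5.70 and 5.63 in control and 5.82, 5.98 and 5.45 in mutant ducts, within 0.67 of each array's own background level, which was between 5.35 and 5.88. Control 3 and mutant 3 were below that level. The log2 difference was -0.07 ± 0.21 (SE, limma adjusted p = 0.921), and for a signal this close to background it says little about the transcript. The other 8 genes were above background on every array, by at least 2.80 for Twist2 and at least 11.02 for Nr2f2.

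The intervals show the precision of these arrays. For 6 of the 9 genes (Nr2f1, Nr2f2, Tcf21, Meis1, Meis2 and Msx1) the 95% interval lay within a 2-fold difference in either direction, which for Msx1 describes a signal near background and sets no bound on its transcript. For Osr1, Osr2 and Twist2 it reached just past or beyond 2-fold lower, and for none of the 9 did it reach 2-fold higher. The smallest absolute log2 change that passed the threshold anywhere in the table was 0.687, and Osr2, the largest of the set, differed by -0.685. The threshold was on adjusted p and not on the size of a change, and the limma adjusted p of Osr2 was 0.224.

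**Figure D2:**
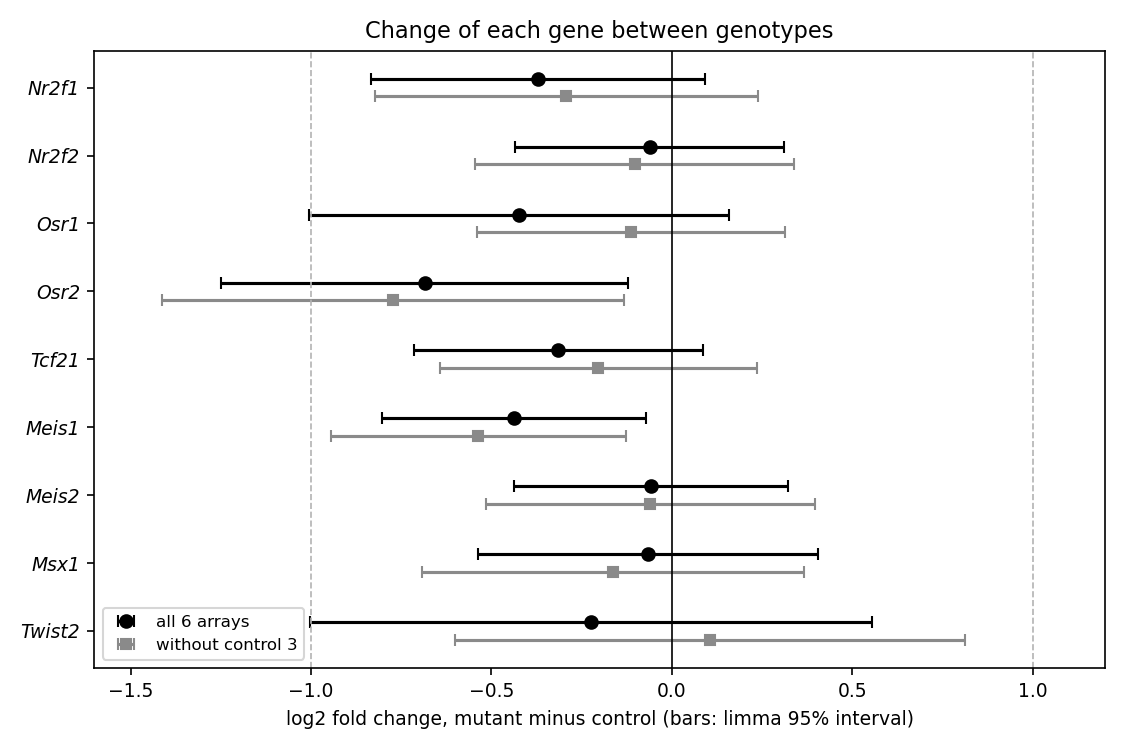
Log2 fold change of each gene, mutant minus control (horizontal axis), with its limma 95% interval, over all 6 arrays (black) and without control 3 (grey), and with dashed lines at 2-fold. The black intervals of Osr2 and Meis1 leave out 0, the point of Osr1 moves from -0.42 to -0.11, and that of Twist2 crosses 0.

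The targeted genes Lats1 and Lats2 had log2 differences of -0.78 (limma adjusted p = 0.0958) and 0.22 (adjusted p = 0.684), neither past the threshold, and whether their probes lie in the floxed exons is not known here. The tissue was then read against markers. Mesenchyme markers Col1a1, Col3a1 and Dcn, matrix genes of fibroblasts, were above background on every array, as were all 9 mesenchyme markers measured. Duct epithelium was also present, with Epcam, Pax2, Pax8 and Wnt7a above background throughout. Lhx1, 1 of the 10 duct epithelium markers measured, was below background on every array. It was the 1 marker of that list past the threshold, higher in mutant ducts (limma adjusted p = 0.0358), but in a signal below background. Of the 9 mesenchyme markers, 6 had a lower mean in mutant ducts, Amhr2 among them, and Pdgfrb, Col1a1 and Vim had a higher one. Amhr2, whose locus holds Cre in the mutants, fell by 3.73 on the log2 scale (limma adjusted p = 0.000112). Why Amhr2 fell was not tested. The pericyte and fibroblast receptor gene Pdgfrb rose by 0.91 (limma adjusted p = 0.0263). The median log2 difference of these 9 markers was -0.33, and that of the 9 transcription factors was -0.31. Leaving out Amhr2, the mesenchyme markers had mean deviations of 0.02 to 0.13 in control and -0.10 to 0.00 in mutant ducts. These ranges lay close but did not overlap. The 9 transcription factors had -0.07 to 0.26 on control and -0.23 to -0.03 on mutant arrays, ranges that overlapped. Macrophage markers moved the other way, with 6 of 7 rising and mean deviations of -0.69 to -0.63 on control and 0.57 to 0.81 on mutant arrays. Whether the macrophage signal had a part in the lower mean signals of the 9 genes was not tested. Control 3 stood apart for urothelial markers, with a mean deviation of 4.13 against at most -0.64 on the other arrays. For smooth muscle markers the controls were graded, at -1.52, -0.30 and 1.76 in control 1 to control 3. The mutant arrays lay from -0.18 to 0.24. Among the 8 smooth muscle markers, Tagln rose by 2.92 (limma adjusted p = 0.00108) and Synpo2 fell by 2.64 (limma adjusted p = 0.00286), opposite changes that their mean does not show. Control 3 was also the highest array for Osr1, Tcf21 and Twist2, and the part of other tissue in those signals was not tested.

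**Figure D3:**
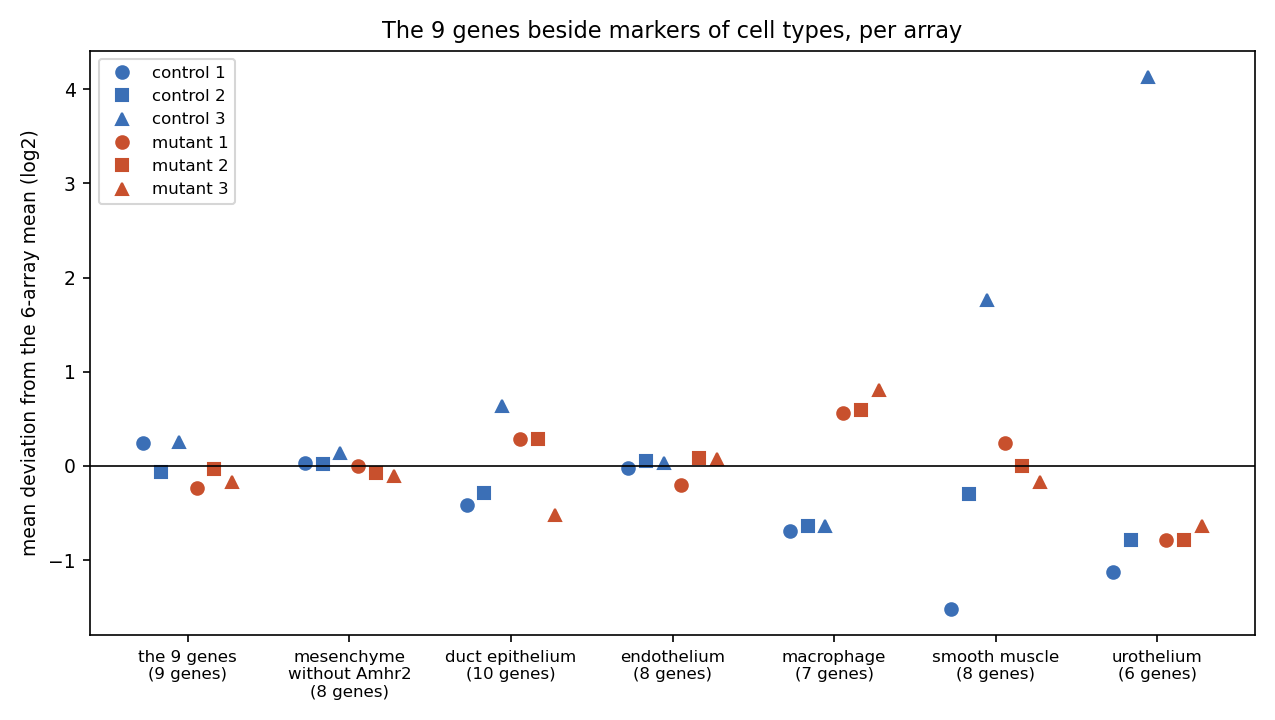
Mean deviation of each gene set from its own 6-array mean (vertical axis, log2) on each array, for the 9 transcription factors and for markers of cell types. Macrophage markers, higher in mutant ducts, separate the genotypes. Mesenchyme markers without Amhr2, lower in mutant ducts, also do so, by a small gap. The urothelial markers of control 3 stand at 4.13. Smooth muscle markers run from -1.52 on control 1 to 1.76 on control 3, and the 9 genes spread over 0.49.

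Across the 6 arrays the members did not share 1 pattern. The highest Pearson r between members was 0.90, between Nr2f2 and an Msx1 signal near background. Osr1 and Twist2 had a Pearson r of 0.78 and Osr1 and Tcf21 of 0.75, with control 3 as the highest array of all 3 genes. Meis1 and Osr2 also had 0.75, whereas Meis1 and Twist2 had -0.05. These are descriptions over 6 arrays that share a genotype contrast and 1 array set apart. The rows most like Osr2, among 11234 rows with a symbol and above background on all arrays, were Zfp983 (r = 0.998), Neurl4 (r = 0.995) and Pcdh1 (r = 0.988). Because they were picked for the highest r, these 3 rows shared the Osr2 pattern by selection, with mutant 2 near the controls and mutant 1 and mutant 3 below them. None of the 3 passed the threshold (limma adjusted p from 0.319 to 0.454).

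Family relatives of the 9 genes gave no call either. None of the 8 measured (Nr2f6, Meis3, Msx2, Msx3, Twist1, Msc, Tcf23 and Tcf15) passed in limma, none had an unadjusted p under 0.05, and 3 were below background on every array, with a median log2 difference of -0.05. Meis3 had the smallest p, with a log2 difference of -0.48 ± 0.22 (SE, limma adjusted p = 0.333). Msx2, named after its value was seen, was at 8.16, 8.41 and 9.20 in control and 9.999, 10.32 and 8.12 in mutant ducts. Mutant 1 and mutant 2 were above every control and mutant 3 below them, and Msx2 passed when mutant 3 was left out (log2 fold change 1.57, limma adjusted p = 0.0452).

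Partners and cofactors were measured for 11 genes, among them PBX and PREP proteins that pair with MEIS, E proteins that pair with TCF21 and TWIST2, and the COUP-TF cofactors FOG2 and BCL11. None passed in limma, 2 had an unadjusted p under 0.05, and the median log2 difference was -0.21. Pbx3 had the smallest p. It was at 11.12, 10.76 and 10.97 in control and 11.39, 11.78 and 11.79 in mutant ducts, with all mutant arrays above all controls. Its log2 difference was 0.70 ± 0.19 (SE, limma adjusted p = 0.0899), and it passed with rows under the median signal left out (adjusted p = 0.0398) and with the trended prior (adjusted p = 0.0368). The second was the E protein gene Tcf12, named after its value was seen, with a log2 difference of -0.50 ± 0.16 (limma adjusted p = 0.172). It passed with the trended prior (adjusted p = 0.0415).

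Of 23 other mesenchyme transcription factors measured, none passed in limma and 6 had an unadjusted p under 0.05. Their median log2 difference was -0.07, with 12 below 0 and 11 above, and 5 were below background on every array. Prrx2, a paired-type homeodomain factor, had the smallest p. It was at 9.87, 9.81 and 10.07 in control and 10.54, 10.49 and 10.30 in mutant ducts, a log2 difference of 0.52 ± 0.16 (SE, limma adjusted p = 0.158). Its relative Prrx1, named after its value was seen, was at 13.90, 13.98 and 13.83 in control and 13.38, 13.54 and 13.51 in mutant ducts. The log2 difference of Prrx1 was -0.43 (limma adjusted p = 0.221), and the difference between it and Prrx2 was not tested. Of the 23 factors, 6 had every mutant array below every control, Prrx1 among them, and 2 had them above, Prrx2 among them. Foxc2 and Foxd1, named after their values were seen, were also among the 6, but both were below background on every array. The shares over all rows were 10.2% for mutant below and 21.1% in either direction. Emx2 (-0.71), Gata2 (-0.56) and Gata4 (-0.49), also named after their values were seen, were lower too (limma adjusted p from 0.174 to 0.279). Without control 3, 1 of the 23 passed, Foxc1, named after its value was seen, with a log2 fold change of 1.01 (limma adjusted p = 0.0388), though its signal was below background on all control arrays and on mutant 2.

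Among 8 signalling genes that other work places beside the 9 factors, Bmp4 rose and the other 7 did not pass. Bmp4 encodes a ligand that MSX1 sustains and OSR2 restrains in tooth mesenchyme. It was at 10.71, 10.91 and 11.90 in control and 14.66, 14.83 and 14.43 on the mutant arrays. The log2 fold change was 3.47 ± 0.29 (SE, limma adjusted p = 0.000348). The rise of Bmp4 passed in all 13 alternative fits. The Msx1 signal lay near background and the Osr2 difference did not pass, and whether either gene bears on Bmp4 here was not tested. Ptch1, the hedgehog receptor and a target of that pathway, on which COUP-TFII depends in uterine stroma, was at 8.53, 8.27 and 9.58 in control and 8.52, 8.49 and 8.83 in mutant ducts. Its log2 difference was -0.18 ± 0.31 (limma adjusted p = 0.847), and it turned to 0.22 without control 3, the highest array.

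**Figure D4:**
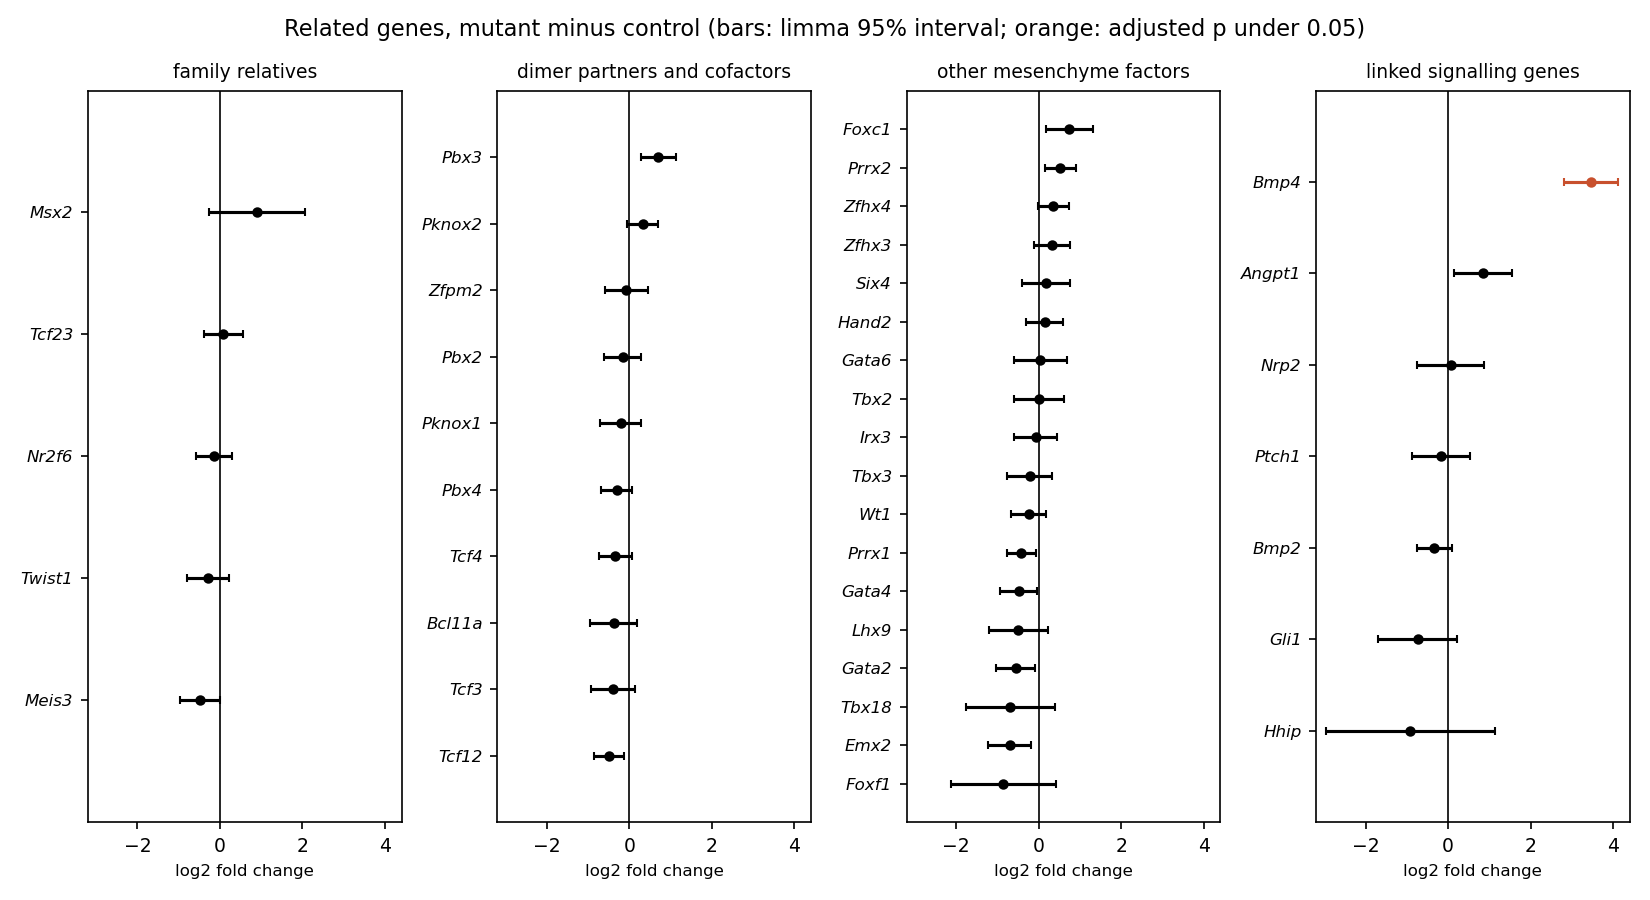
Log2 fold change, mutant minus control (horizontal axis), with limma 95% intervals, for related genes above background on at least 1 array, in 4 groups. Bmp4 (orange, 3.47) is the single gene past an adjusted p of 0.05, and the widest interval is that of Hhip.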

How the data were processed

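The authors deposited 1 table of log2 signals for 6 Affymetrix arrays, made with Transcriptome Analysis Console 4.0, per the submitters' processing notes. No source used here says how probes were summarised or arrays normalized. Array medians lay between 6.87 and 6.95, and the values were used as deposited. Control rows were left out, and each array's background level was the median of its 23 background probes. The platform's probe table gave symbols to 19572 of the 22206 rows tested. Promoter windows came separately, from RefSeq (GRCm38.p6).

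A model with genotype alone was fitted to every row in limma 3.58.1 (lmFit, eBayes) under R 4.3.3. Tests were two-sided, Benjamini-Hochberg adjusted over all rows, with a threshold of 0.05. Group membership came from the labels. In data simulated for this comparison on 22206 rows, log2 changes of 1 were recovered in 33% of cases and of 2 in 88%. Alternatives were 2 normalizations, 2 filters, array weights, a trended prior with robust estimation, a replicate block, and each array left out. Members, lists and alternatives were chosen with earlier results of these data known. Besides the members, the text names from each related list the genes past the threshold, or else that with the smallest p, Bmp4 and Ptch1, and the 3 rows most like Osr2, the member with the largest absolute difference. Other genes of these lists are named after their values were seen, and markers as checks of the tissue. The number of arrays limits the precision. Plots used matplotlib 3.10.9 (Python 3.11.15).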

Additional observations from a re-analysis of the deposited data

How the results depend on the processing

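The 9 genes gave 0 calls in limma in each of the 13 alternative fits (7 settings over all arrays and 6 with 1 array left out), of which the fit without rows under the median signal held 8 of them. Over all rows, 723 passed (575 rose and 148 fell), and falls numbered 257 without rows under the median signal and 243 with the trended prior. With 1 array left out the total was between 360 and 697, with 305 to 565 rises and 55 to 132 falls. Without control 1 it was 384, without control 2 454 and without mutant 1 360, and falls without mutant 3 were 92. Related genes past the threshold numbered 1, but 2 (2 rises) without rows under the median signal and 3 (2 rises and 1 fall) with the trended prior. With 1 array left out they numbered between 1 and 2, all rises. Directions near 0 turned with single arrays, and the cause was not tested. Over these fits Nr2f2 was between -0.12 and 0.03, Meis2 between -0.16 and 0.05, Msx1 between -0.18 and 0.09, Twist2 between -0.51 and 0.11 and Ptch1 between -0.44 and 0.22. Without control 1, Nr2f2 was at 0.029, Meis2 at 0.047 and Msx1 at 0.090, and Osr1 minus Osr2 at -0.017 (up to 0.66 without control 3). Msx1 was at 0.083 without mutant 3.

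The replicate block gave 633 calls over all rows, 0 of the 9 genes and 1 related gene, with an adjusted p of 0.259 for Osr2 and 0.313 for Meis1, and changed no call of the 9 genes, Bmp4, Ptch1, Meis3, Pbx3 or Prrx2, the genes for which it was read. Same-numbered arrays did not deviate together (correlations from -0.0030 to 0.042), and control 3 correlated best with mutant 1 (0.032).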

Other observations

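Several genes of the lists had their highest value on control 3. Hhip, a hedgehog-binding protein and target of that pathway, was at 9.03 there and at 5.02 to 6.18 on the other 5 arrays. Of those 5 arrays, all but mutant 3 had a Hhip signal below background. The hedgehog effector gene Gli1 was at 8.84 on control 3 and at 6.66 to 7.91 elsewhere. Foxf1, a forkhead factor of visceral mesenchyme, was at 6.50 against 3.89 to 4.18, which was below background on all of the other 5 arrays. Tbx18, a factor of ureter mesenchyme, was at 9.01 against 6.74 to 7.99. For Gli1 and Tbx18 the other 5 arrays themselves spread over 1.25 and 1.26, so control 3 was less set apart. These 4 genes were chosen after their values were seen, and the urothelial genes Upk2 (12.21) and Psca (11.90) were high on the same array.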
